A study of Drosophila melanogaster with 3 samples.

Results

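Start-proximal intronic Dip3 peaks are binding sites whose summit, the point of highest signal, lay more than 500 and at most 2000 bp from the nearest start of a protein-coding transcript, inside the body of a protein-coding gene and in no annotated exon. They numbered 526 of the 3741 peaks in the authors' set thresholded by the irreproducible discovery rate (IDR), or 14.1%. The rule used position alone, and did not select on peak strength, recovery in single replicates or base composition. The IDR set was itself already selected, since 3740 of its 3741 peaks were among the strongest regions of the authors' pooled list. Base composition can also differ with position, so it was set beside weaker regions that meet the same rule. Of the other peaks, 2147 were promoter peaks, within 500 bp of a coding start, and 569 were deep intronic peaks, more than 2000 bp from one.

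The peaks came from chromatin immunoprecipitation and sequencing (ChIP-seq) of whole Drosophila melanogaster embryos of mixed sex, aged 0 to 24 h, which carry a transgene for Dip3 tagged with eGFP. Chromatin was sheared by sonication and precipitated with an antibody to GFP, in 3 biological replicates of this single group. There was thus no second genotype, stage or treatment to compare, and the values belong to the tagged protein in a mixture of all embryonic tissues and stages. Which cells a peak came from cannot be told apart in such material.

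Dip3, the product of the gene Dlip3, is a protein with a MADF domain, which binds DNA, and a BESS domain, through which such proteins contact partners. It is known for binding Dorsal and Twist, transcription factors that pattern the dorsoventral axis of the early fly embryo. Introns close to transcript starts, above all first introns, are a known location of enhancers and of alternative promoters in flies.

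The 5 strongest of these peaks are shown first, because their summits are rich in A and T, as the class was on average; single summits varied. Each sequence covers the summit and 50 bp on either side on the plus strand of dm6 (RefSeq, Release 6), with every run of 6 or more A or T bases in capitals.
ush, 2L:481042-481142: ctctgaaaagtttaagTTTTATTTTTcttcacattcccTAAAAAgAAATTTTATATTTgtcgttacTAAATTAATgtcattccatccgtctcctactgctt
CG11050, 2L:6612662-6612762: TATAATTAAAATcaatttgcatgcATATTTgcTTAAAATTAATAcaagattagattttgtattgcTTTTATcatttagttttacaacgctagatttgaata
CG32772, X:4910312-4910412: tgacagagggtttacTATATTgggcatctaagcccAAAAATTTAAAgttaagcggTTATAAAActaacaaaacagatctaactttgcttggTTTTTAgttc
Lk6, 3R:11760997-11761097: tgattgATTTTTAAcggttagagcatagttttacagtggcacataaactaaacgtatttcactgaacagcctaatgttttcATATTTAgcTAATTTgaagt
CG9663, 2L:3302130-3302230: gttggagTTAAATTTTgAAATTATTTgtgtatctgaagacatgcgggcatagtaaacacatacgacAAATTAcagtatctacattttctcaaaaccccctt

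The strongest start-proximal intronic peak lay in the first intron of ush, which encodes a zinc finger cofactor of GATA factors, 1404 bp upstream of the nearest start, that of cbt, a gene for another zinc finger transcription factor. It ranked 3 of 3741 in the IDR set, with a signal of 2327 on the authors' scale, and ranked 3, 3 and 3 in replicates 1, 2 and 3. Its place was thus the same in every replicate. ush itself had no promoter peak, while the gene at the nearest start had one.

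The peak in CG11050 had a signal of 1988, rank 4, and ranked 8, 5 and 1 in the replicates. It lay 1025 bp downstream of a start, in a second intron of 140 bp. The peak in CG32772, 1260 bp downstream of its start, ranked 12, 15 and 13. The peak in Lk6, which encodes a protein kinase that phosphorylates the cap-binding factor eIF4E, lay 968 bp upstream of the nearest Lk6 start, within the first intron of a longer Lk6 transcript, and ranked 11, 16 and 12. The peak in CG9663 ranked 23, 13 and 16. Each of these 4 stayed within the 23 strongest regions of every replicate.

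The 25 strongest start-proximal intronic peaks found in all 3 replicate top lists ran from a signal of 2327 down to 509. A top list is here the 3741 strongest regions of a replicate's own list, as many as the IDR set holds. In replicates 1 and 2 only 2480 and 3226 regions had a q value of 0.01 or less, against 8812 in replicate 3. The top lists of replicates 1 and 2 thus reach past that limit, and the lists are not equally stringent. The lowest rank that any of the 25 took in any replicate was 249, that of CG9921 in replicate 2. In all, 23 of the 25 lay in a first intron, 14 lay downstream of the nearest start, 12 were in a gene with a promoter peak, and 8 were on the X chromosome. Over all 526 start-proximal intronic peaks the same shares were 84.0%, 66.5%, 49.0% and 23.8%.

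Several hosts of these 25 encode regulators of transcription and chromatin. Trl, which encodes GAGA factor, held a peak that ranked 49, 53 and 57 in the replicates. NFAT, a Rel-homology transcription factor gene, held a pair of the 25, at ranks 94, 82 and 77 and at ranks 143, 166 and 160. Adf1, which encodes a founding MADF-BESS protein and so belongs to the family of Dip3, held one at ranks 24, 41 and 84. The peak shared by the overlapping genes HmgD and HmgZ, both for HMG-box chromatin proteins, ranked 29, 47 and 74. The peak in wde, a partner of the histone methyltransferase Eggless, ranked 88, 72 and 111. For Adf1, HmgD/HmgZ and wde, replicate 3 gave the lowest place.

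Others encode signalling and metabolic proteins. The peak in norpA, the phospholipase C of phototransduction, ranked 41, 51 and 81, and that in chif, an activator of the replication kinase Cdc7, ranked 113, 57 and 71. The peak in Csk, an inhibitory kinase of Src, spread most among the replicates of those in this paragraph, at 95, 89 and 221. The peak in for, a cGMP-dependent protein kinase, ranked 119, 103 and 105, and that in Zw, glucose-6-phosphate dehydrogenase, ranked 76, 74 and 127. Their ranks in the IDR set lay between 56 and 107.

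**Figure D1:**
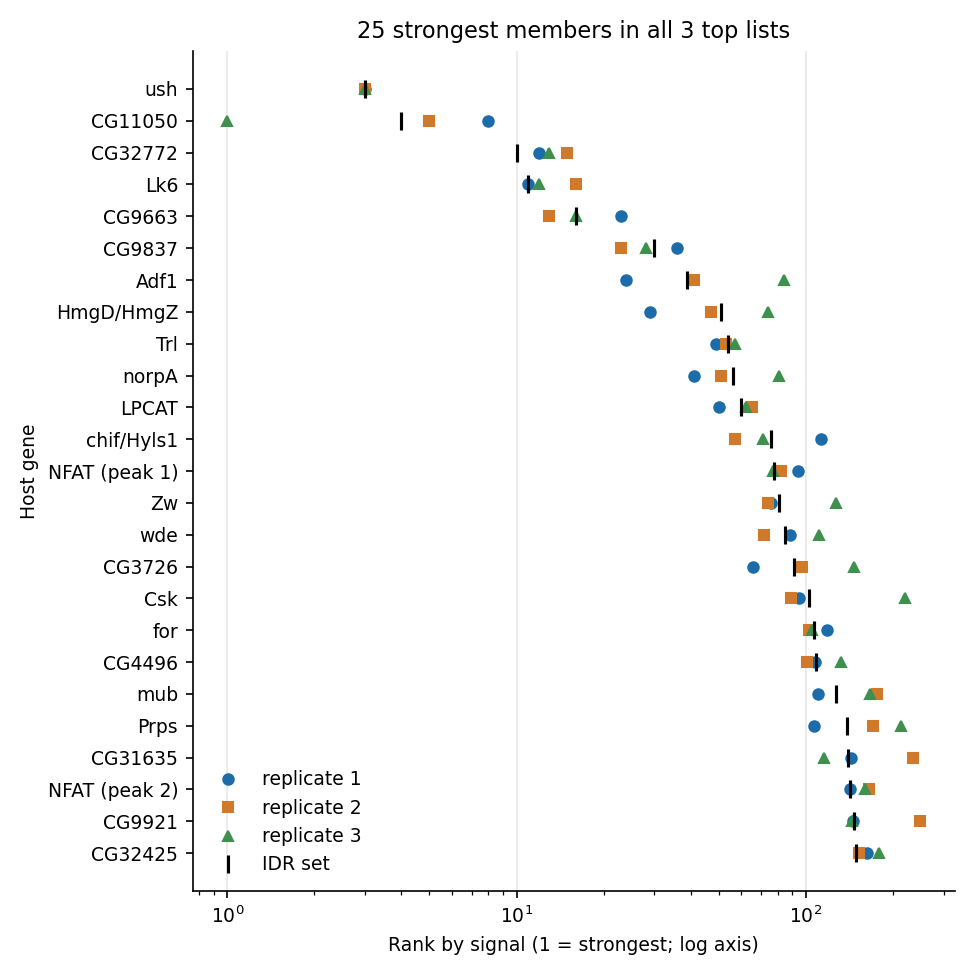
Rank by signal (x axis, log scale, 1 is the strongest) of the 25 strongest start-proximal intronic peaks that were in all 3 top lists, by host gene, in each replicate list (coloured symbols) and in the IDR set (black bars). The first 5 hosts stay within the 23 strongest regions of each replicate, and the lowest symbol in any replicate is at 249.

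The median signal of the 526 peaks was 136, with quartiles of 101.2 and 211 and a range of 85.1 to 2327. The medians were 150 for promoter peaks and 128 for deep intronic peaks. To compare strength within replicates, each IDR peak was given its percentile by signal in each replicate, where 50 is the middle of the IDR set and 100 the strongest. Start-proximal intronic peaks had medians of 52.1, 48.9 and 44.7 in replicates 1, 2 and 3, deep intronic peaks 47.8, 44.5 and 40.3, and promoter peaks 51.7, 52.9 and 56.2.

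The start-proximal intronic median exceeded the deep intronic median in 3 of 3 replicates, by 4.33 ± 0.03 percentile points (SD, n = 3; exact sign-flip permutation test, two-sided, p = 0.25). With 3 replicates that test cannot go below 0.25, so no contrast over replicates reported here could pass 0.05. Against promoter peaks the sign was mixed, at +0.44, −4.06 and −11.5 points. In total 195 contrasts over replicates were computed, and the p-values given were not adjusted, since an adjusted value cannot be lower.

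Of the 526 peaks, 83.5%, 85.2% and 73.4% overlapped the top lists of replicates 1, 2 and 3, beside 81.5%, 85.2% and 77.6% of all IDR peaks. In all 3 top lists at once were 302, or 57.4% (95% exact Clopper-Pearson interval 53.1 to 61.7%, which covers counting error only), beside 58.7% of all IDR peaks. At a q value of 0.01 or less in every replicate were 311, or 59.1%, beside 57.3% of all IDR peaks. Recovery across replicates was therefore near the background of the IDR set. It rose with strength in the IDR set. With that set divided into 4 equal parts by signal, 127 of 128 peaks in the strongest part were in all 3 top lists. The next parts had 111 of 122, 49 of 124 and, in the weakest, 15 of 152. Over all IDR peaks the same parts had 96.6%, 84.9%, 43.3% and 9.94%. The IDR signal came from the pooled alignments of the same 3 replicates, so a rise of this kind follows by construction.

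Start-proximal introns held more peaks per base than deep introns. The positions that meet the rule sum to 9.93 Mb, or 7.41% of the chromosome arms, and held 53 IDR peaks per Mb, whereas promoters held 140 and deep introns 14.7. In the replicate top lists the same rule selected 536, 534 and 478 regions, which gave 52.0 ± 3.32 per Mb (SD, n = 3) against 15.8 ± 2.88 for deep introns, a difference of 36.2 ± 0.45 that was positive in 3 of 3 replicates (exact permutation p = 0.25). Weak regions served as background, namely the lower 50% of the pooled list that overlapped no IDR peak. Of these 11591 regions, 1208 met the rule, or 10.4%, and their density was 122 per Mb in start-proximal introns and 88.4 in deep introns, a smaller contrast.

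Over this range of distance the density fell with distance. It was 70.8 peaks per Mb at 500 to 750 bp, 61.8 at 750 to 1000 bp, 46.4 at 1000 to 1250 bp, 47.6 at 1250 to 1500 bp, 43.1 at 1500 to 1750 bp and 39.99 at 1750 to 2000 bp, with the lower limit left out of each bin. In the replicates the nearest bin had 68.6 ± 4.36 and the farthest 38.5 ± 1.96 per Mb, a difference of 30.1 ± 2.81 with the same sign in 3 of 3 (exact permutation p = 0.25). Background regions had 124 per Mb in the nearest and 116 in the farthest bin.

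The sides of a start differed in the nearest bin. Upstream of the nearest start, 500 to 750 bp held 92.7 peaks per Mb and 750 to 1000 bp held 42.5. Downstream the same bins held 58.8 and 71.2. The replicate top lists gave 89.8 ± 11.1 and 56.6 ± 3.77 per Mb upstream (SD, n = 3). Downstream they gave 57.0 ± 4.02 and 64.0 ± 1.39, so in the second bin the sides were closer than in the IDR set. Over the whole range the sides were close, at 54.4 per Mb upstream and 52.3 downstream. At the edges of the rule, the nearest peaks left out were in wkd at 495 bp and qtc at 498 bp, and the nearest kept were in CG12910 at 506 bp and sick at 507 bp, with signals of 116, 230, 90.0 and 342. At the far edge CHES-1-like at 1968 bp and Atg1/CG42709 at 1989 bp were kept, with signals of 197 and 118, while Shrm at 2001 bp and Tet at 2004 bp were left out, with signals of 154 and 96.6.

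**Figure D2:**
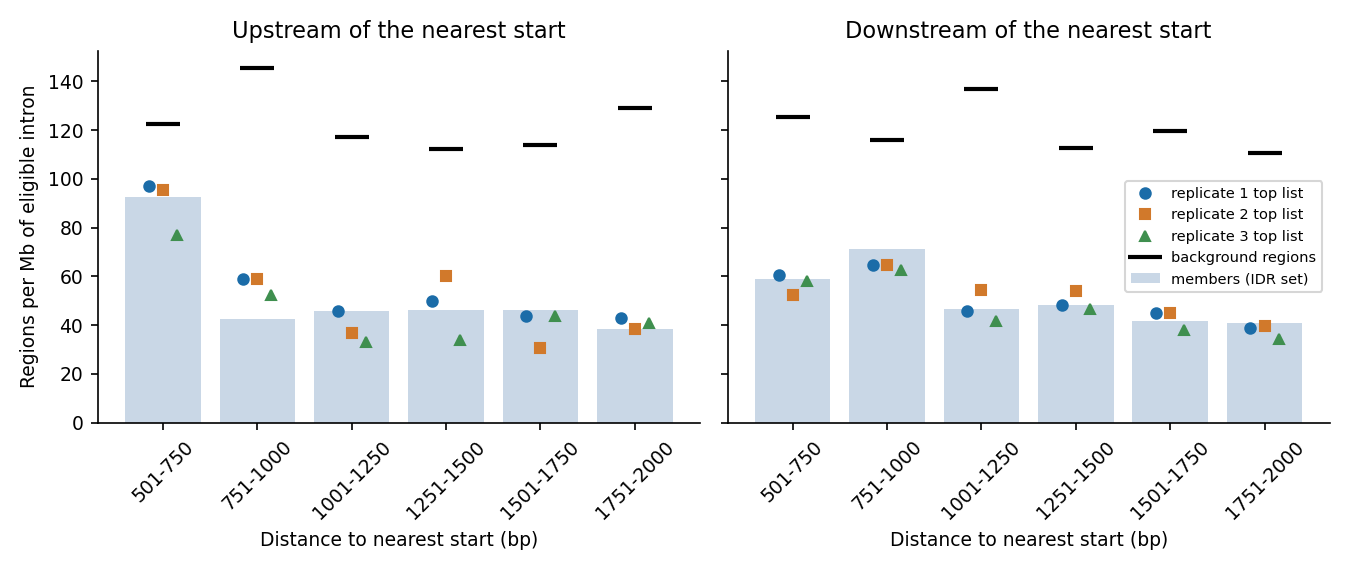
Regions per Mb of intron that meets the rule (y axis) by distance to the nearest coding start (x axis, bp), upstream and downstream of that start, for IDR peaks (bars), the replicate top lists (coloured symbols) and background regions (black lines). The highest bar is the bin nearest to the start on its upstream side, at 92.7 per Mb, and background regions lie above the peaks in each bin because their list is longer.

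Of the 526 peaks, 350 lay downstream of the nearest start, or 66.5%, beside 66.8% of background regions. The nearest start belonged to the host gene for most: 341 peaks lay downstream of a host start, and 146, or 27.8%, lay upstream of a host start inside a longer transcript of the same gene, beside 21.4% of background regions. The start of another gene was nearest for 39, or 7.41%, beside 16.1% of background regions. In the replicates these last shares were 7.86 ± 0.47% against 17 ± 4.29%, lower in 3 of 3 (exact permutation p = 0.25).

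First introns held 442 of the peaks, or 84.0% (95% interval 80.6 to 87.1%), against 73.1% of background regions under the same rule. The replicates gave 84.6 ± 1.98% against 70.0 ± 4.16%, a difference of 14.6 ± 2.18 points that was positive in 3 of 3 (exact permutation p = 0.25). A peak counted as first-intronic where the intron was the first of at least 1 transcript. Under the stricter reading, first in every transcript that has it, the share was 58.6% against 48.0%. The introns had a median length of 4374.5 bp for peaks and 4548.5 bp for background regions, so the hosting introns were of similar length.

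A promoter peak was present in the host gene of 258 of the 526, or 49.0%, against 34.9% of background regions. With promoters of 200 bp in place of 500 bp on either side the share was 29.3%. The replicates gave 44.8%, 44.0% and 58.8% against 24.2%, 28.6% and 44.0% of background regions, a difference of 16.9 ± 3.19 points that was positive in 3 of 3 (exact permutation p = 0.25). The replicate 3 top list also held the most promoter regions, 62.3% of it against 51.1% and 53.1% in replicates 1 and 2. Peaks in a gene with a promoter peak had a median signal of 146, and those in a gene without one 128.

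**Figure D3:**
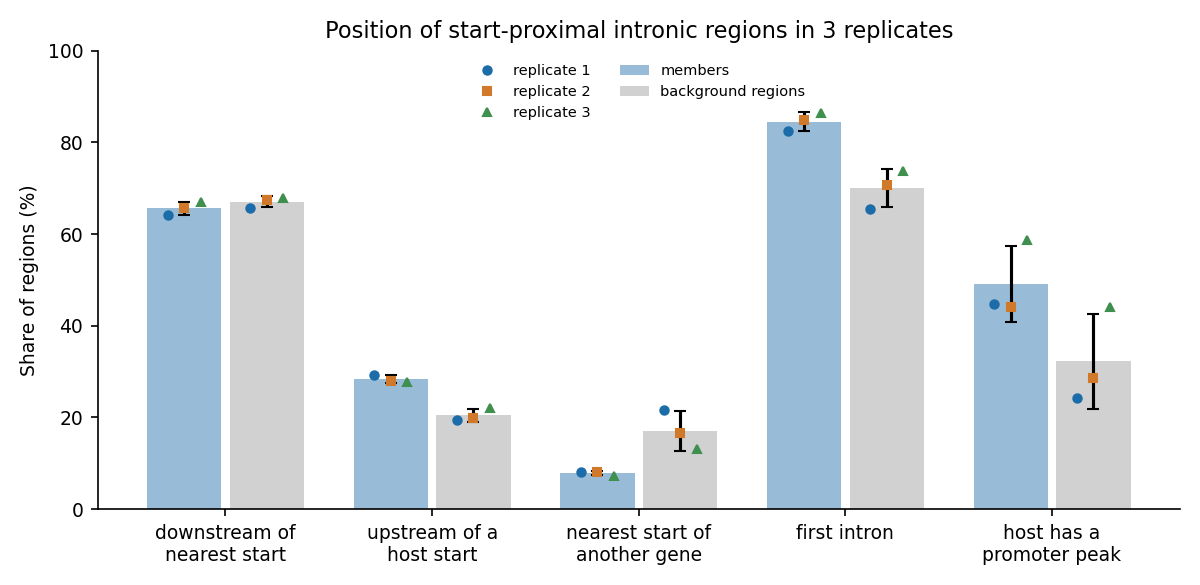
Share of start-proximal intronic regions (y axis, %) with each of 5 features of position, for the replicate top lists (blue bars) and the background regions of the same replicates (grey bars). Bars are means of 3 replicates, error bars are SD and symbols are single replicates. First introns and hosts with a promoter peak are higher in each replicate, by 14.6 and 16.9 points on average.

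The peaks lay in 464 genes, 5.12% of the 9062 genes that have at least 1 position meeting the rule. Of these hosts 45.7% had a promoter peak, whereas 24% of the genes that could host did, and 30.6% of the hosts of background regions. Hosts were longer, with a median of 13764.5 bp against 3477 bp, and had more often 2 or more starts, 71.8% against 33.9%. Hosts of background regions had a median length of 14727 bp and 63.7% had 2 or more starts. The part of gene length and number of starts in these shares was not tested.

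Most hosts, 392, held a single start-proximal intronic peak, while 72 held 2 or more and 13 held 3 or more. Tlk, which encodes the Tousled-like kinase of chromatin assembly, and shn, which encodes a zinc finger protein of Dpp signalling, each held 6. The Tlk peaks had signals of 452, 274, 176, 153, 91 and 86, and 3 were in all 3 top lists. The shn peaks had signals of 226, 198, 105, 104, 92 and 90, and 4 were in all 3 top lists. Under the same rule the top lists of replicates 1, 2 and 3 gave 5, 4 and 5 regions in Tlk, but 2, 6 and 2 in shn. CG1677 held 5, with signals of 89.4 to 200, and HmgD and HmgZ held 5 each, of which 4 lie in both genes, since these overlap.

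CHES-1-like, a forkhead gene, held 4 peaks with signals of 382, 283, 197 and 183, and NFAT held 4 with signals of 687, 522, 231 and 154. All 8 of these were in all 3 top lists. The genes with 3 peaks were Acsl, CG9837, Mnt, Trl, milt and tou, of which Mnt encodes a Myc network repressor, milt the mitochondrial transport adaptor Milton, and tou a chromatin remodelling factor. None of the 3 peaks in Acsl, a gene for an acyl-CoA synthetase, was in all 3 top lists, and the replicate top lists gave 1, 3 and 1 regions there, while all 3 in Trl and in tou were. These genes offer more positions that meet the rule, 18077 bp in Tlk, which has 8 starts, and 6577 bp in Acsl, which has 7, beside a median of 379 bp over all genes that could host. The part of that length in their counts was not tested.

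Of 344 genes on 14 lists of signalling, regulatory and cellular functions that could host, 52 did, or 15.1%, beside 5.12% of all genes that could host. The same listed genes also hosted background regions more often, 22.4% against 10.9%, and offered a median of 1323.5 bp that meets the rule against 379 bp. The part of that length was not tested, and the lists were chosen with earlier results of these data known. Among developmental transcription factors 15 of 65 did: after ush and Trl, fru, a regulator of sexual behaviour, had the strongest peak at a signal of 332. Of Dpp and Activin signalling genes 5 of 18 did: wit, a type II receptor, at 480, shn at 226, the effector Mad at 224, the effector Smox at 109 and the inhibitor Dad at 98.3. The peak in Dad was missing from the lists of replicates 1 and 2. Background regions were hosted by 17 of the 65 developmental transcription factor genes and by 5 of the 18 Dpp and Activin genes.

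Of Ras, EGFR and MAPK genes 5 of 23 did, led by the adaptor drk at 276, the inhibitor sty at 225 and the kinase Raf at 152. Of Wnt, Hedgehog and Notch genes 5 of 31 did, led by the ubiquitin ligase neur at 322, the co-receptor arr at 118 and the kinase sgg at 96.3. Of stress and growth kinases 5 of 29 did, where Mekk1 at 351 and the insulin receptor InR at 287 followed Lk6. Background regions were hosted by 9 of the 23, 5 of the 31 and 9 of the 29 genes, in the same order.

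Of axon guidance and adhesion genes 5 of 36 did, led by the phosphatase Ptp10D at 248, kirre at 225 and the netrin receptor fra at 123. Of chromatin and insulator genes 4 of 38 did, namely Trl, the Polycomb gene ph-p at 262, the corepressor Sin3A at 259 and psq at 172. Of nuclear receptor and ecdysone genes 3 of 21 did, namely br at 331, Hr4 at 242 and Eip75B at 145. Of other lists, heat shock and stress genes gave 1 of 12, Hsp83 at 167, autophagy genes 1 of 18, Atg1 at 155, circadian clock genes 2 of 12, led by Pdp1 at 107, and translation factors 2 of 16, led by pAbp at 327. No gene of the Toll and Dorsal list held one, 0 of 16, which allows a share of up to 20.6% (exact interval), although replicates 1 and 2 each had 1 such host. Background regions were hosted by 11 axon guidance, 3 chromatin, 6 nuclear receptor, 2 heat shock, 2 autophagy, 2 circadian, 0 translation and 2 Toll and Dorsal genes. Genes on these lists differ in the length of intron near their starts, so the counts were not compared with each other.

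The arms 2L, 2R, 3L and 3R held 47.8, 49.4, 48.1 and 56.9 peaks per Mb. X held the most, at 63.3, and chromosome 4 had a single peak. Background regions numbered 204, 242, 261, 283 and 215 on 2L, 2R, 3L, 3R and X. Positions that meet the rule sum to 1.76, 1.90, 1.95, 2.25 and 1.98 Mb there, in the same order. On X the replicates gave 70.9, 63.8 and 50.1 per Mb, and replicate 3 thus fell below the 52.5 it gave on 3R. Another IDR summit lay within 2000 bp of 43.3% of the 526, beside 29.1% of all IDR peaks. The rule itself puts each of the 526 within 2000 bp of a coding start, and promoter peaks lie at such starts. The part of this placement in the share was not tested, and no background regions were compared.

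The summits were poor in G and C. Mean GC content within 50 bp of a start-proximal intronic summit was 34.8%, against 42.9% in windows 500 bp away, on a side drawn at random, and 40.8% at the summits of background regions. In the replicates summits had 35.5 ± 1.40% and flanks 42.5 ± 0.32%, lower at the summit in 3 of 3 by 7.09, 8.55 and 5.22 points (exact permutation p = 0.25). The dip was narrow: in steps of 25 bp it was lowest at the summit itself, at 33.2%, and 42.3% and 41.9% at 500 bp on either side.

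Other classes of Dip3 peak had the dip as well. Promoter summits had 37.4% against 45.9% in their flanks, and deep intronic summits had 34.2% against 41.7%. Start-proximal intronic summits were below promoter summits by 2.10 ± 0.63 points in 3 of 3 replicates (exact permutation p = 0.25), while the sign against deep intronic summits was mixed. A run of 10 or more A or T bases was present in 50.6% of the summit windows, in 29.7% of the flanks and in 36.7% of background summits, and in 51.1% of deep intronic and 45.9% of promoter summits. How far base composition moves recovery of DNA in the assay was not tested, and the control sample was not analysed here.

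**Figure D4:**
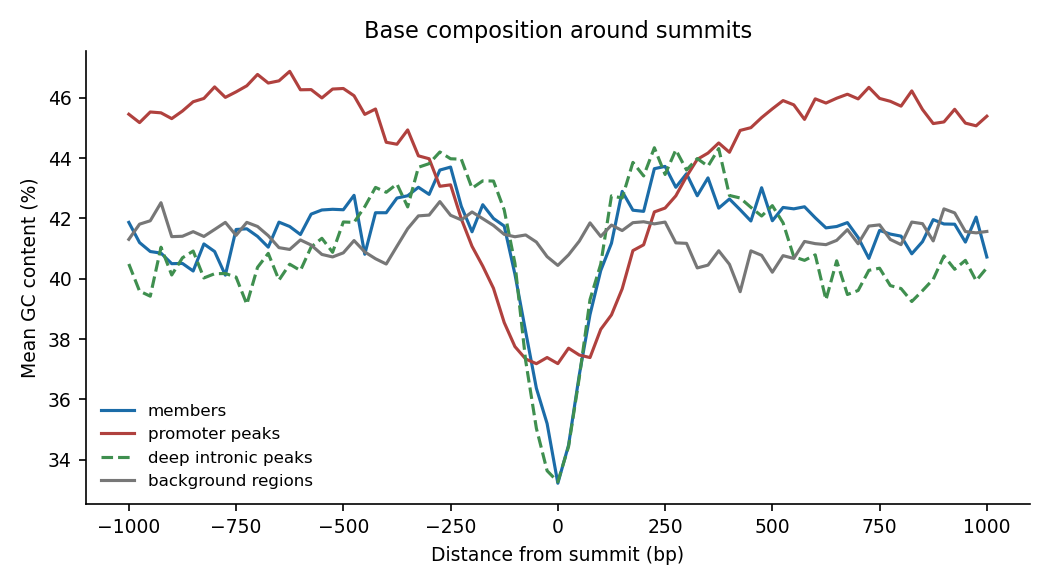
Mean GC content (y axis, %) in 25 bp steps by distance from the summit (x axis, bp) for start-proximal intronic peaks, promoter peaks, deep intronic peaks and background regions. Start-proximal intronic peaks fall to 33.2% at the summit, where background regions are at 40.4%, and the dip of promoter peaks is wider.

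Some motifs of housekeeping promoters were less frequent at these summits than at promoter peaks. The rule leaves out positions within 500 bp of a coding start, and promoter peaks lie there by definition. This contrast is thus not independent of the rule. CGATA, the core of the site of the insulator protein BEAF-32, was in 10.6% of the 526 windows, on either strand, against 26.7% of promoter summits and 11.5% of background summits. In the replicates it was in 11.5 ± 1.04% of start-proximal intronic and 24.4 ± 1.98% of promoter summits, lower in 3 of 3 (exact permutation p = 0.25). TATCGATA, the site of the promoter factor DREF, which can overlap CGATA, was in 1 of 526 windows, or 0.19%, against 4.75% of promoter summits. The core of Ohler motif 7, another core promoter element, was in 0.76% against 5.64%.

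GAGAG, the element bound by GAGA factor and CLAMP, was in 9.51% of the summit windows, 18.3% of the flanks and 12.4% of background summits. Against background the sign was mixed in the replicates, at −2.08, −1.01 and +1.68 points. TATAAA was in 18.1%, against 11.6% of flanks and 12.7% of background summits, and GCCAT, the core bound by Pho, in 12% against 19.2% and 19.5%. TATAAA holds only A and T while GAGAG and GCCAT hold G or C, and summits had less G and C than flanks. The part of base composition in these shares was not tested.

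CATATG, an E-box bound by Twist, was in 5.32% of the windows, against 3.59% of promoter, 3.51% of deep intronic and 3.81% of background summits. In the replicates it was in 5.11 ± 0.70% of start-proximal intronic summits against 3.50 ± 0.94% of background summits, higher in 3 of 3 (exact permutation p = 0.25). The Rel site, bound by Dorsal, had a match in 1 of 526, or 0.19%, against 0.33% of background summits. GGTATTTT, the core of Ohler motif 6, was in 1.71% against 1.91% of promoter, 0.25% of background and 0.18% of deep intronic summits. The replicates gave 1.80 ± 0.22% against 1.89 ± 0.31%, 0.66 ± 0.09% and 0.99 ± 0.08%, with a mixed sign against promoter summits. TGTGGTT, a Runt site, was in 2.28% against 1.49% of background and 0.88% of deep intronic summits, but in 1.2% of the summits in the upper 50% of the IDR set by signal. These are among 32 motifs searched, and a match in a window is not evidence of binding there.

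**Figure D5:**
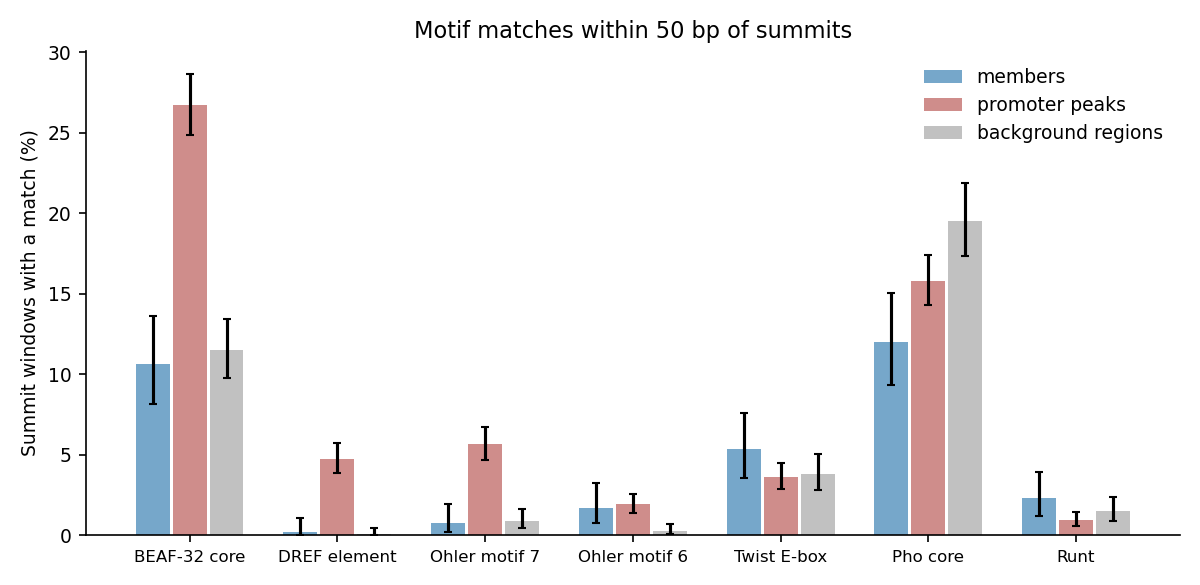
Share of summit windows of 50 bp on either side with a match on either strand (y axis, %) for 7 of the 32 motifs, in start-proximal intronic peaks, promoter peaks and background regions. Error bars are exact 95% binomial intervals. The BEAF-32 core reaches 26.7% at promoter peaks and 10.6% at start-proximal intronic peaks.

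Among 572 words of 6 bases found in at least 5% of the windows, the 10 with the highest ratio of summit to flank share were ACCATA in 5.70% of windows, TAGTAA in 7.22%, ACTGTG in 10.3%, ATCTTA in 9.32%, AGATCA in 6.46%, CTTATA in 5.32%, TAAGTA in 7.60%, GTTACA in 6.46%, ACTTAT in 10.1% and AATAAG in 9.32%. This ranking depended on which flank was drawn: with both flanks 5 of the 10 stayed in the leading 10, and with flanks at 1000 bp 2 did. Another random draw of sides had been looked at beforehand and gave a different order of words. Not all of these words were most frequent in this class. AATAAG was in 9.87% of promoter and 10.5% of deep intronic summits, CTTATA in 6.29% of promoter summits and TAAGTA in 8.61% of deep intronic summits. The other named words were less frequent in both of those classes than here. The word of the 10 in the most windows was ACTGTG, in 10.3% of summits, 3.04% of flanks, 5.05% of background summits, 6.19% of promoter and 6.15% of deep intronic summits. In the replicates it was in 10.3%, 8.05% and 9.41% of summits and in 3.73%, 3.75% and 4.39% of flanks, each above the flank share of the IDR set. The ratio of summit to flank share was 3.38 in the IDR set and 2 there with flanks at 1000 bp.

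A longer word of 7 bases that contains it, CACTGTG, was examined after these values were seen. CACTGTG was in 34 of the 526 windows, or 6.46%, against 0.95% of flanks, 1.90% of background, 3.31% of promoter and 2.64% of deep intronic summits. The replicates gave 5.88 ± 0.11%, against 1.82 ± 0.53% of background and 3.34 ± 0.50% of promoter summits, higher in 3 of 3 in each case (exact permutation p = 0.25). The replicate lists share most of their regions with the IDR set in which the word was found, so they are no separate evidence for it.

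Peaks with ACTGTG were on the whole weaker, although some of the strongest held it. The 54 peaks with it had a median signal of 112 and 44.4% were in all 3 top lists, while the 472 without it had a median of 141 and 58.9%. Their mean GC content was 39.6% against 34.2%. Of the strongest peaks that hold ACTGTG and were in all 3 top lists, 3 are shown, at ranks 238, 583 and 702 in the IDR set. They are on the plus strand of dm6 (RefSeq, Release 6), with ACTGTG or its reverse complement CACAGT in capitals.
schlank, X:6265553-6265653: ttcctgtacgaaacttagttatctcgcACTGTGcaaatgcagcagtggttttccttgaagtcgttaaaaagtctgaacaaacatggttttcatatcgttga
CHES-1-like, X:7705622-7705722: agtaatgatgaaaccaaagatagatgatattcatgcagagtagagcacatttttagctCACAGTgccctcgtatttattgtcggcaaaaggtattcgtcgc
RhoGEF64C, 3L:4698188-4698288: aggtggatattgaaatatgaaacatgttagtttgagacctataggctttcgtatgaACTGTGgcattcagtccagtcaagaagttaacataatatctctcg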

How the data were processed

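ChIP-seq peak lists of 3 biological replicates of tagged-Dip3 embryos were used. Per the file headers, the authors called regions for each replicate and for the pooled alignments, and made the IDR set from these lists. Each deposited region has a signal value, a score of the authors' caller whose scale differs between lists, and a −log10 q value. What aligned the reads, called the regions and set the threshold is not given in the sources used here, and sequencing depth is unknown.

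The members and gene lists were chosen with earlier results of these data known. Positions are on dm6, counted from 1, with Ensembl release 115 annotation on BDGP6 patch 54 and RefSeq Release 6 sequence. Overlap meant at least 1 bp. Densities divide summits by all positions that meet the same rule. The replicate contrasts used exact sign-flip permutation tests. With 3 replicates their p is 0.25 whenever the 3 differences share a sign, whatever the size or spread of these. Named were the 25 strongest peaks in all 3 top lists, genes with 3 or more, peaks nearest the limits, up to 3 hosts per gene list and 10 words, and further hosts and words after their values were seen. Of the gene list symbols, 5 had no unique match. The classifier and word search were tested on simulated data. Alternatives covered starts, exons, strength, replicates, distances, windows and flanks. Python 3.11.15, NumPy 2.4.6, SciPy 1.17.1 and Matplotlib 3.10.9 were used. One gene list and one sequence are not reported here.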

Additional observations from a re-analysis of the deposited data

How the results depend on the processing

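Counting starts of all gene classes, or excluding exons of coding genes only, moved the strength, position, BEAF-32 share and GC content of the peaks by less than the spread between replicates, gave 537 and 536 peaks, and left the share in all 3 top lists within its exact interval. The other alternatives moved values, several by construction, since they keep stronger peaks or use wider windows. With the upper 50% of the IDR set by signal there were 250 peaks, at a median percentile of 75.9, 95.2% in all 3 top lists, 88% in a first intron, 31.6% with a host promoter peak (from the same subset), 8.4% with CGATA, 33.2% GC and 9.30% of list genes hosting. At 500 to 1000 bp there were 255 peaks, percentile 51.5, 64.3% downstream and 8.63% with CGATA, and at 1000 to 2000 bp 271, 43.3, 68.6% and 12.5%. Requiring the top lists of the other replicates while leaving out each in turn gave 330 to 390 peaks at percentiles of 62.5 to 68.8. Of these, 77.4 to 91.5% were in all 3 lists, 64.2 to 67.4% lay downstream and 85.1 to 87.5% in a first intron. A host promoter peak, again taken from the same subset, was present for 35.8 to 42.1%. CGATA was in 8.18 to 9.85%, and GC content was 33.5 to 34.2%. The share in all 3 top lists was 41.6% with a reciprocal overlap of 50% and 19.6% for the top 1000 regions. A host promoter of 200 bp on either side gave 29.3% and one of 1000 bp, which takes in peaks of the class itself, gave 79.5%. CGATA was in 4.37% of windows of 25 bp and 20.7% of windows of 100 bp on either side, and GC content in the latter was 36.6%. The summit to flank ratio of ACTGTG, 3.38, was 2 with flanks at 1000 bp and 3 with both flanks, an alternative chosen after seeing the data. The causes were not tested. No paired analysis was possible because there was 1 group, so replicate numbers pair no groups; contrasts between classes of region were taken within replicates.

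Of 80 values of the 8 further motifs under the same alternatives, 40 moved by less than the spread between replicates and 40 by more. Depth being unknown, absence of a peak from a list does not show absence of binding.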

Other observations

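Of the 526 peaks, 36 overlapped no region in the list of at least 1 replicate, 28 of them in that of replicate 1 alone. The shares listed in replicates 1, 2 and 3 were 94.1%, 98.9% and 99.6%, beside 92.2%, 99.1% and 99.3% of all IDR peaks. The strongest was the peak in pAbp, a gene for a poly(A)-binding protein, with a signal of 327, which was listed in replicate 3 alone, at rank 654. The peak in Eip75B, an ecdysone-induced nuclear receptor gene, was unlisted in replicate 1, at rank 23222 in replicate 2 and at rank 372 in replicate 3. As a description across the peaks present in both lists, the Spearman coefficient of their ranks was 0.80 for replicates 1 and 2 over 492 peaks. It was 0.69 for replicates 1 and 3 over 493, and likewise 0.69 for replicates 2 and 3 over 518. Over all IDR peaks the same coefficients were 0.80, 0.65 and 0.65. These peaks share genome positions and selection by the pooled signal.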
